A study of Mus musculus with 12 samples.

Results

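The genes described here build and serve the high-affinity receptor for immunoglobulin E, the antibody of allergic responses, in mouse bone marrow cells transformed by a leukaemia fusion gene. They are Fcer1a, Ms4a2 and Fcer1g, which encode the alpha, beta and gamma chains of the receptor, Hdc and Hpgds, which encode the enzymes that make histamine and prostaglandin D2, and Gata1, a transcription factor of mast cells and of other blood lineages. All probe sets that the platform annotation gives to these symbols were taken, which came to 8 probe sets for 6 genes of the 18193 genes on the array with a symbol. Ms4a2 and Hdc had a pair of probe sets each, and all 8 passed the filter on dim values.

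Mast cells and basophils carry the IgE receptor as a complex of an alpha chain that binds IgE, a beta chain that amplifies the signal and a dimer of gamma chains that passes it on to kinases inside the cell. When antigen cross-links the bound IgE, the cell empties granules loaded with histamine and starts to make prostaglandins and leukotrienes. The gamma chain is not specific to IgE, since several receptors for IgG and some lectins of monocytes and macrophages also depend on it. Gata1 is required for erythroid cells, megakaryocytes and eosinophils and takes part in the maturation of mast cells.

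All cultures came from bone marrow of (C57Bl/6Ly-Pep3b x C3H/HeJ) F1 mice, exposed to 5-fluorouracil and infected with a retrovirus for the fusion gene NUP98-HOXD13, and all were grown for 4 weeks in 15% serum with 100 ng/ml stem cell factor and 6 ng/ml IL-3, both of mouse, and 10 ng/ml human IL-6. IL-3 and stem cell factor are the usual growth factors for mast cells in culture. A further retrovirus was then added over 2 days on irradiated E86 producer cells, and the groups differ in what it carried. M33-MEIS1 is known only by its label, where M33 is an older name of the Polycomb protein Cbx2. MEIS1-deltaHD is MEIS1, a homeobox cofactor of HOX proteins, without its homeodomain, and MEIS1-WT is the wild-type protein. The MIY control is the vector with yellow fluorescent protein alone. Each of the 4 groups had 3 arrays, described by the submitters as separate experiments. The sources used here give neither the sort gate, nor the age of the mice, nor how long after infection RNA was taken. Signals are array intensities on a linear scale, set by the authors so that the trimmed mean of every array is 100, and they are not comparable between probe sets.

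The probe sets named for the inserted genes checked the labels only in part. One of the 2 Cbx2 probe sets read 51.3 ± 9.60 (SD, n = 3) with M33-MEIS1, 11.4 ± 2.38 with MEIS1-deltaHD, 10.2 ± 4.89 with MEIS1-WT and 7.12 ± 5.47 in MIY control. The other was not higher with M33-MEIS1, at 63.9 ± 10.3 with M33-MEIS1, 57.7 ± 12.1 with MEIS1-deltaHD, 64.9 ± 7.47 with MEIS1-WT and 82.1 ± 20.2 in MIY control. The brightest Meis1 probe set read 117 ± 14.6, 109.9 ± 9.96 and 141 ± 10.4 with the constructs in the same order, below the 187 ± 18.4 of MIY control. It was not tested here which of these probe sets can see an inserted gene. The labels call the cells cultured bone marrow and name no lineage. Of 20 listed mast cell markers, members not counted, 14 of the 18 with a probe set passed the filter, and the signal of all 18 summed to 9301 to 10856 with M33-MEIS1, 6982 to 7811 with MEIS1-deltaHD, 6615 to 7087 with MEIS1-WT and 8262 to 10431 in MIY control. More than 50% of each mean sum was the proteoglycan Srgn, at 5798, 5247, 4861 and 5286 on average in that order, and without it, left out after its values were seen, the sums were 4099.9 to 4477, 1940.3 to 2312, 1986 to 2220.2 and 3247 to 4909. Here and below, such sums weight each gene by the brightness of its probe set and do not measure amounts of RNA. The mast cell carboxypeptidase Cpa3 and granzyme B, which mouse mast cells store in granules, averaged 1939 and 999 with M33-MEIS1, 966 and 258 with MEIS1-deltaHD, 846 and 205 with MEIS1-WT and 1689 and 939 in MIY control. The mature mast cell protease Mcpt4 lay between 1.47 and 10.1 on average in the 4 groups. Mcpt4 and the markers Mcpt1, Mrgprb1 and Rgs13 did not pass the filter. The proteases Cma1, Tpsab1 and Tpsb2 of the same list passed it. They averaged 256, 65.2 and 60.7 with M33-MEIS1 and 157, 28.3 and 45.3 in MIY control. With MEIS1-deltaHD they averaged 73.5, 13.8 and 14.2, and with MEIS1-WT 93.7, 13.6 and 15.7.

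The promoters of the receptor chains are shown because GATA factors are known to act at mast cell genes and because Fcer1a and Ms4a2 shared part of their pattern. Sequences are from RefSeq, build GRCm38.p6, cover the 250 bases before the start that its promoter table uses for each gene, and run 5′ to 3′ along the gene's own strand, which is the minus strand for all 3. Capitals mark the letters GATAA or, on the opposite strand, TTATC.
Fcer1a, chr1:173227230-173227479, minus strand: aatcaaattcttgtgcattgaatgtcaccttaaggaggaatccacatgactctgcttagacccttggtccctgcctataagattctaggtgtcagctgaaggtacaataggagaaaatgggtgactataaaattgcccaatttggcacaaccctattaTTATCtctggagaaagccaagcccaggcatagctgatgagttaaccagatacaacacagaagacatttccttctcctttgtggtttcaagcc
Ms4a2, chr19:11623720-11623969, minus strand: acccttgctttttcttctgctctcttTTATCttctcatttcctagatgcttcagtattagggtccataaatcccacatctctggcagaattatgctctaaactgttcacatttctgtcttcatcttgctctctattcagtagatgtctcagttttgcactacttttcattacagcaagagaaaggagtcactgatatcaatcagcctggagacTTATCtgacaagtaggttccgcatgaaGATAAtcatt
Fcer1g, chr1:171234350-171234599, minus strand: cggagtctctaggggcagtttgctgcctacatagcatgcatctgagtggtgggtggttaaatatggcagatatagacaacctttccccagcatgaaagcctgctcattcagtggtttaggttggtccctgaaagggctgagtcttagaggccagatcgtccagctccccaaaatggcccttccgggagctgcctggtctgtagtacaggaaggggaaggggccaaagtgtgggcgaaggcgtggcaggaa
GATAA on either strand was found once in the Fcer1a window, 92 to 88 bases before the start. The Ms4a2 window held 3 matches, at 224 to 220, 37 to 33 and 10 to 6 bases before the start. The windows of Fcer1g, Hdc, Hpgds and Gata1 held 0. Only the letters GATAA were searched, and other forms of a GATA site were not. RefSeq's gene table of the same build begins some of these genes further upstream, so that 71 of the 250 bases of the Ms4a2 window, 3 of Fcer1a, 0 of Fcer1g and all 250 of Hdc, Hpgds and Gata1 lie inside the gene's range there. Positions are counted from the start in the promoter table, and the last 2 matches of Ms4a2 fall inside that range. TGACAG, the core letters of MEIS sites, was found on neither strand of any of the 6 windows. The letters GATAA occurred in 22.6% and TGACAG in 15.9% of 32851 windows of the same length, so a match is a description and not a binding site.

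Relative to MIY control, Fcer1g fell and Hdc rose with all 3 constructs, while Fcer1a, Ms4a2, Hpgds and Gata1 depended on which construct was present. Fcer1a, the IgE-binding chain, was lowest with MEIS1-WT, Ms4a2 was highest with M33-MEIS1, and Hpgds was lowest with M33-MEIS1 and MEIS1-deltaHD. Calls were made with limma at an adjusted p below 0.05 over all 31726 probe sets tested. With M33-MEIS1, 3 were higher and 2 lower than in MIY control, where 11.8% of all probe sets were higher and 17.1% lower. With MEIS1-deltaHD, 2 were higher and 4 lower, against 13.8% and 20.8% of all probe sets. With MEIS1-WT, 2 were higher and 5 lower, against 13.1% and 17.8%. The median difference of the members from control was 0.06, -0.27 and -0.60 in that order, and that of all probe sets was -0.12, -0.14 and -0.10. The split of calls against control depends on the scaling, since 40.8%, 39.8% and 42.4% of all calls were higher with the authors' scaling, 53.6%, 54.5% and 55.0% after quantile normalization and 81.9%, 84.3% and 79.1% with a common median.

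Fewer probe sets of the array differed between constructs. For M33-MEIS1 minus MEIS1-WT, 5 of the 8 probe sets were higher and 1 lower, against 3.36% and 2.19% of all. For MEIS1-deltaHD minus MEIS1-WT, 3 were higher and 1 lower, against 2.42% and 2.11%. For M33-MEIS1 minus MEIS1-deltaHD, 2 were higher and 0 lower, against 0.438% and 0.0536%, and both were probe sets of Hdc. A pair of probe sets for 1 gene is not independent, and the 3 comparisons share arrays. The members were also chosen with earlier results of these data known, among them the fall of Fcer1a with MEIS1-WT. The counts here and against MIY control are therefore a description and not a test of the set.

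The IgE-binding alpha chain had the widest range between groups of the 6 genes on the log2 scale. The Fcer1a probe set read 116, 115 and 145 with M33-MEIS1, 84.0, 70.1 and 97.3 with MEIS1-deltaHD, 41.4, 31.3 and 41.8 with MEIS1-WT, and 154, 176 and 120.2 in MIY control. Every MEIS1-WT array lay below every array of the other groups, and every MEIS1-deltaHD array lay below every M33-MEIS1 and MIY control array. The M33-MEIS1 and MIY control arrays overlapped. On the log2(signal + 16) scale, on which all differences below are given with their standard error (SE), Fcer1a fell by 1.61 ± 0.144 with MEIS1-WT relative to MIY control (adjusted p = 6.72e-09, limma). It fell by 0.73 ± 0.144 with MEIS1-deltaHD (adjusted p = 0.00034), a call that was lost when arrays were scaled to a common median (-0.28, adjusted p = 0.156). With M33-MEIS1 the difference was -0.23 ± 0.144 (adjusted p = 0.266), and it was 0.10 under that scaling. In bulk samples such as these, fewer cells of a type and less RNA per cell cannot be told apart, and this holds for every level given here.

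Fcer1a also separated the constructs from each other. It was 1.38 ± 0.144 higher with M33-MEIS1 than with MEIS1-WT (adjusted p = 4.43e-07) and 0.88 ± 0.144 higher with MEIS1-deltaHD than with MEIS1-WT (adjusted p = 0.000327). Between M33-MEIS1 and MEIS1-deltaHD the difference of 0.50 ± 0.144 did not pass after adjustment (adjusted p = 0.15), although the arrays did not overlap. The order of levels was thus MIY control, M33-MEIS1, MEIS1-deltaHD and MEIS1-WT from high to low, and only the step from MEIS1-deltaHD to MEIS1-WT passed between neighbours.

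The beta chain differed between constructs as the alpha chain did, but stood otherwise against control. The brighter Ms4a2 probe set read 313, 326 and 342 with M33-MEIS1, 266, 266 and 193 with MEIS1-deltaHD, 129.7, 157 and 133 with MEIS1-WT, and 197, 225 and 202 in MIY control. All M33-MEIS1 arrays were above, and all MEIS1-WT arrays below, every array of the other groups, while MEIS1-deltaHD and MIY control overlapped. Set against MIY control, it rose by 0.62 ± 0.112 with M33-MEIS1 (adjusted p = 0.000184). This probe set fell by 0.52 ± 0.112 with MEIS1-WT (adjusted p = 0.000812), or by 0.19 with arrays scaled to a common median, where it no longer passed (adjusted p = 0.33). With MEIS1-deltaHD the difference was 0.19 ± 0.112 (adjusted p = 0.199), and it passed as 0.33 without MEIS1-deltaHD replicate 3 (adjusted p = 0.0223) and as 0.66 under common median scaling (adjusted p = 0.000137).

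The dimmer Ms4a2 probe set gave the same order of the constructs at a lower signal. It averaged 89.3 ± 11.0 (SD, n = 3) with M33-MEIS1, 76.1 ± 3.62 with MEIS1-deltaHD, 35.8 ± 4.98 with MEIS1-WT and 72.3 ± 14.6 in MIY control. It fell by 0.76 ± 0.140 with MEIS1-WT relative to MIY control (adjusted p = 0.000171), whereas the differences of 0.26 ± 0.140 with M33-MEIS1 and 0.07 ± 0.140 with MEIS1-deltaHD did not pass (adjusted p = 0.179 and 0.732). The probe sets therefore disagreed on whether Ms4a2 was above control with M33-MEIS1, except that the dimmer probe set passed too after quantile normalization (0.40, adjusted p = 0.0388). Both probe sets separated the other constructs from MEIS1-WT. With M33-MEIS1 they were 1.14 ± 0.112 and 1.02 ± 0.140 above MEIS1-WT (adjusted p = 1.8e-07 and 2.42e-05), and with MEIS1-deltaHD 0.71 ± 0.112 and 0.83 ± 0.140 above it (adjusted p = 0.000194 and 0.000438). Neither passed between M33-MEIS1 and MEIS1-deltaHD, at 0.43 ± 0.112 and 0.19 ± 0.140 (adjusted p = 0.112 and 0.694). From high to low both gave the order M33-MEIS1, MEIS1-deltaHD, MIY control and MEIS1-WT, in which only the step between MIY control and MEIS1-WT passed.

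The gamma chain followed a different course from its partners. The Fcer1g probe set read 1755, 1657 and 1896 with M33-MEIS1, 1648, 1579.5 and 1646 with MEIS1-deltaHD, 2027, 1774 and 1938 with MEIS1-WT, and 3066, 3328 and 2909 in MIY control. Every MIY control array was above every construct array, and the M33-MEIS1 arrays overlapped those of MEIS1-WT. Relative to MIY control Fcer1g fell by 0.80 ± 0.0751 with M33-MEIS1 (adjusted p = 2.18e-08), by 0.92 ± 0.0751 with MEIS1-deltaHD (adjusted p = 1.7e-09) and by 0.69 ± 0.0751 with MEIS1-WT (adjusted p = 1.4e-07). These comparisons share the control arrays. None of the 3 comparisons between constructs passed for Fcer1g, with a difference of -0.11 ± 0.0751 for M33-MEIS1 minus MEIS1-WT (adjusted p = 0.512), -0.23 ± 0.0751 for MEIS1-deltaHD minus MEIS1-WT (adjusted p = 0.0887) and 0.12 ± 0.0751 for M33-MEIS1 minus MEIS1-deltaHD (adjusted p = 0.617). After quantile normalization the difference of -0.26 for MEIS1-deltaHD minus MEIS1-WT passed (adjusted p = 0.0214). From high to low the order was MIY control, MEIS1-WT, M33-MEIS1 and MEIS1-deltaHD, and only its first step passed. With MEIS1-WT, then, all 3 chains were below MIY control under the authors' scaling, though the brighter Ms4a2 probe set did not pass with a common median. With M33-MEIS1 the gamma chain was below MIY control, the beta chain was above it by its brighter probe set, and the alpha chain did not pass.

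**Figure D1:**
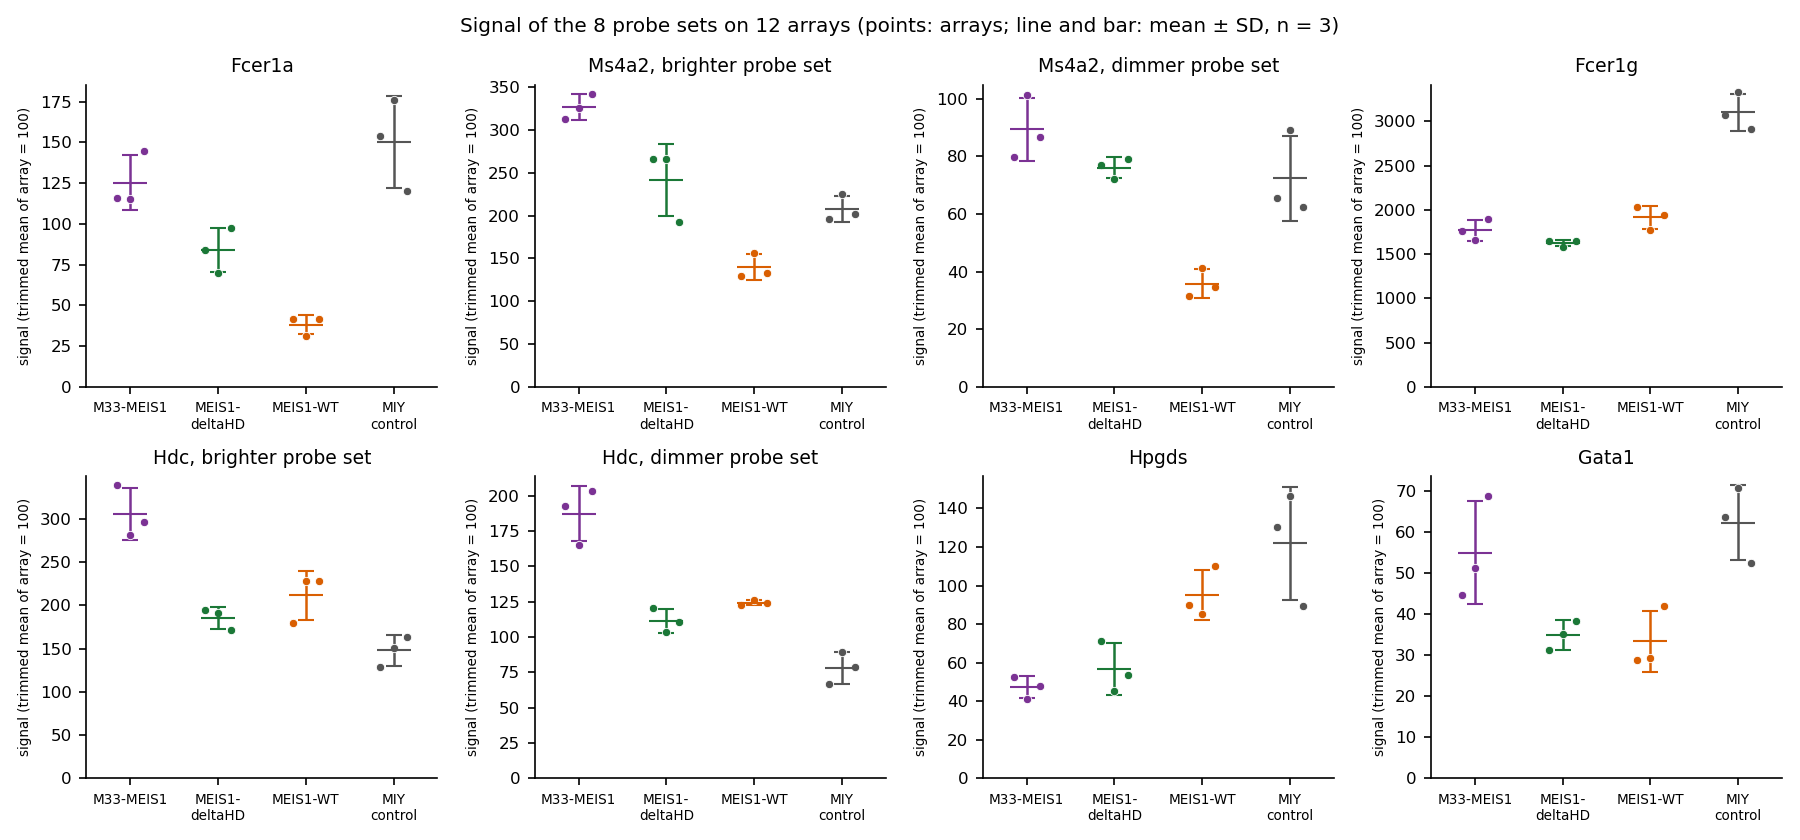
Signal of the 8 probe sets on each of the 12 arrays, on a linear axis from 0 on which the trimmed mean of an array is 100. Points are arrays, and the line and bars are the mean and SD of 3 arrays in M33-MEIS1, MEIS1-deltaHD, MEIS1-WT and MIY control; Fcer1a is lowest with MEIS1-WT, Fcer1g is highest in MIY control, and both Hdc probe sets are highest with M33-MEIS1.

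Hdc, the only enzyme that makes histamine from histidine, was higher with every construct, where the receptor's gamma chain was lower. Its brighter probe set read 339, 282 and 296 with M33-MEIS1, 194, 191 and 171 with MEIS1-deltaHD, 179, 228 and 228 with MEIS1-WT, and 129, 151 and 164 in MIY control. All M33-MEIS1 arrays were above every other array, all control arrays were below every construct array, and MEIS1-deltaHD and MEIS1-WT overlapped. Relative to MIY control it rose by 0.97 ± 0.111 with M33-MEIS1 (adjusted p = 4.63e-07) and by 0.47 ± 0.111 with MEIS1-WT (adjusted p = 0.00199). The rise of 0.30 ± 0.111 with MEIS1-deltaHD (adjusted p = 0.0382) was lost without the filter on dim probe sets (adjusted p = 0.0543), without the intensity trend (adjusted p = 0.089), without control replicate 1 (0.22, adjusted p = 0.185) or 2 (0.32, adjusted p = 0.0536), and without MEIS1-deltaHD replicate 1 (0.27, adjusted p = 0.122) or 2 (0.28, adjusted p = 0.108).

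The dimmer Hdc probe set read 193, 165 and 204 with M33-MEIS1, 121, 104 and 110.4 with MEIS1-deltaHD, 123, 126 and 124 with MEIS1-WT, and 66.9, 89.6 and 78.5 in MIY control. Its arrays fell into the same pattern, with M33-MEIS1 on top and MIY control at the bottom without overlap. It rose by 1.11 ± 0.115 with M33-MEIS1 (adjusted p = 1.06e-07), by 0.44 ± 0.115 with MEIS1-deltaHD (adjusted p = 0.0043) and by 0.58 ± 0.115 with MEIS1-WT (adjusted p = 0.000373), all relative to MIY control.

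Hdc was the only member that passed between M33-MEIS1 and MEIS1-deltaHD. The differences were 0.67 ± 0.111 for the brighter and 0.67 ± 0.115 for the dimmer probe set (adjusted p = 0.00306 and 0.00424). Both calls were lost under common median scaling (0.54 and 0.54, adjusted p = 0.113 and 0.0862) and without the intensity trend (adjusted p = 0.0914 and 0.0689), and that of the dimmer probe set without MEIS1-deltaHD replicate 2 (0.63, adjusted p = 0.051). With M33-MEIS1 the probe sets were also 0.50 ± 0.111 and 0.53 ± 0.115 above MEIS1-WT (adjusted p = 0.0059 and 0.00479); the first of these did not pass without MEIS1-WT replicate 1 (0.39, adjusted p = 0.0595) or without the intensity trend (adjusted p = 0.0533). MEIS1-deltaHD and MEIS1-WT did not pass for either probe set, with differences of -0.17 ± 0.111 and -0.14 ± 0.115 (adjusted p = 0.521 and 0.638). The order of Hdc was M33-MEIS1, MEIS1-WT, MEIS1-deltaHD and MIY control from high to low, and the steps at its ends passed while the middle step did not. The names of both Hdc probe sets mark them as able to match more than 1 transcript.

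Hpgds, the haematopoietic synthase that turns prostaglandin H2 into prostaglandin D2, was lower with M33-MEIS1 and MEIS1-deltaHD. It read 52.8, 41.3 and 47.8 with M33-MEIS1, 71.4, 45.2 and 53.6 with MEIS1-deltaHD, 89.8, 85.5 and 110.1 with MEIS1-WT, and 130.2, 146 and 89.3 in MIY control. The M33-MEIS1 and MEIS1-deltaHD arrays overlapped each other and lay below all MEIS1-WT and MIY control arrays, which also overlapped. In the construct cultures Hpgds fell by 1.10 ± 0.161 with M33-MEIS1 (adjusted p = 1.24e-05) and by 0.92 ± 0.161 with MEIS1-deltaHD (adjusted p = 9.04e-05), both relative to MIY control. With MEIS1-WT the difference was -0.29 ± 0.161 (adjusted p = 0.179). It was -0.48 and passed without control replicate 3, the lowest control array (adjusted p = 0.0279), and it was 0.03 under common median scaling.

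Between constructs Hpgds was lower with M33-MEIS1 than with MEIS1-WT, at -0.81 ± 0.161 (adjusted p = 0.00205). MEIS1-deltaHD was also lower than MEIS1-WT, at -0.62 ± 0.161 (adjusted p = 0.0235), but that call did not hold without the filter (adjusted p = 0.06), without the intensity trend (adjusted p = 0.104), under common median scaling (-0.52, adjusted p = 0.0749), or without any one of MEIS1-WT replicates 1 (-0.65, adjusted p = 0.0552) and 3 (-0.53, adjusted p = 0.125) and MEIS1-deltaHD replicates 2 (-0.50, adjusted p = 0.16) and 3 (-0.60, adjusted p = 0.0804). M33-MEIS1 and MEIS1-deltaHD differed by -0.19 ± 0.161 (adjusted p = 0.742). The order of Hpgds, from high to low MIY control, MEIS1-WT, MEIS1-deltaHD and M33-MEIS1, thus had a passing step only in its middle.

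Gata1, which works with the cofactor Zfpm1 at many of its targets, was lower with MEIS1-deltaHD and MEIS1-WT. Its probe set read 44.6, 51.2 and 68.8 with M33-MEIS1, 31.2, 35.2 and 38.3 with MEIS1-deltaHD, 28.8, 29.4 and 41.9 with MEIS1-WT, and 63.5, 70.6 and 52.5 in MIY control. All MEIS1-deltaHD and MEIS1-WT arrays were below all M33-MEIS1 and MIY control arrays, and the groups overlapped within each of those pairs. Gata1 fell by 0.62 ± 0.162 with MEIS1-deltaHD (adjusted p = 0.0045) and by 0.67 ± 0.162 with MEIS1-WT (adjusted p = 0.00255), both relative to MIY control. The first call was lost after quantile normalization (-0.42, adjusted p = 0.0538) and both under common median scaling (-0.24 and -0.39, adjusted p = 0.306 and 0.08).

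With M33-MEIS1 the Gata1 difference from MIY control was -0.15 ± 0.162 (adjusted p = 0.536), and it turned positive under both other scalings. M33-MEIS1 stood 0.52 ± 0.162 above MEIS1-WT without passing (adjusted p = 0.0645). That difference passed without MEIS1-WT replicate 3 (0.64, adjusted p = 0.0364) or without M33-MEIS1 replicate 1 (0.62, adjusted p = 0.0449). M33-MEIS1 minus MEIS1-deltaHD was 0.47 ± 0.162 (adjusted p = 0.281) and MEIS1-deltaHD minus MEIS1-WT 0.05 ± 0.162 (adjusted p = 0.928). No step between neighbours passed in the order of Gata1, which was MIY control, M33-MEIS1, MEIS1-deltaHD and MEIS1-WT from high to low.

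**Figure D2:**
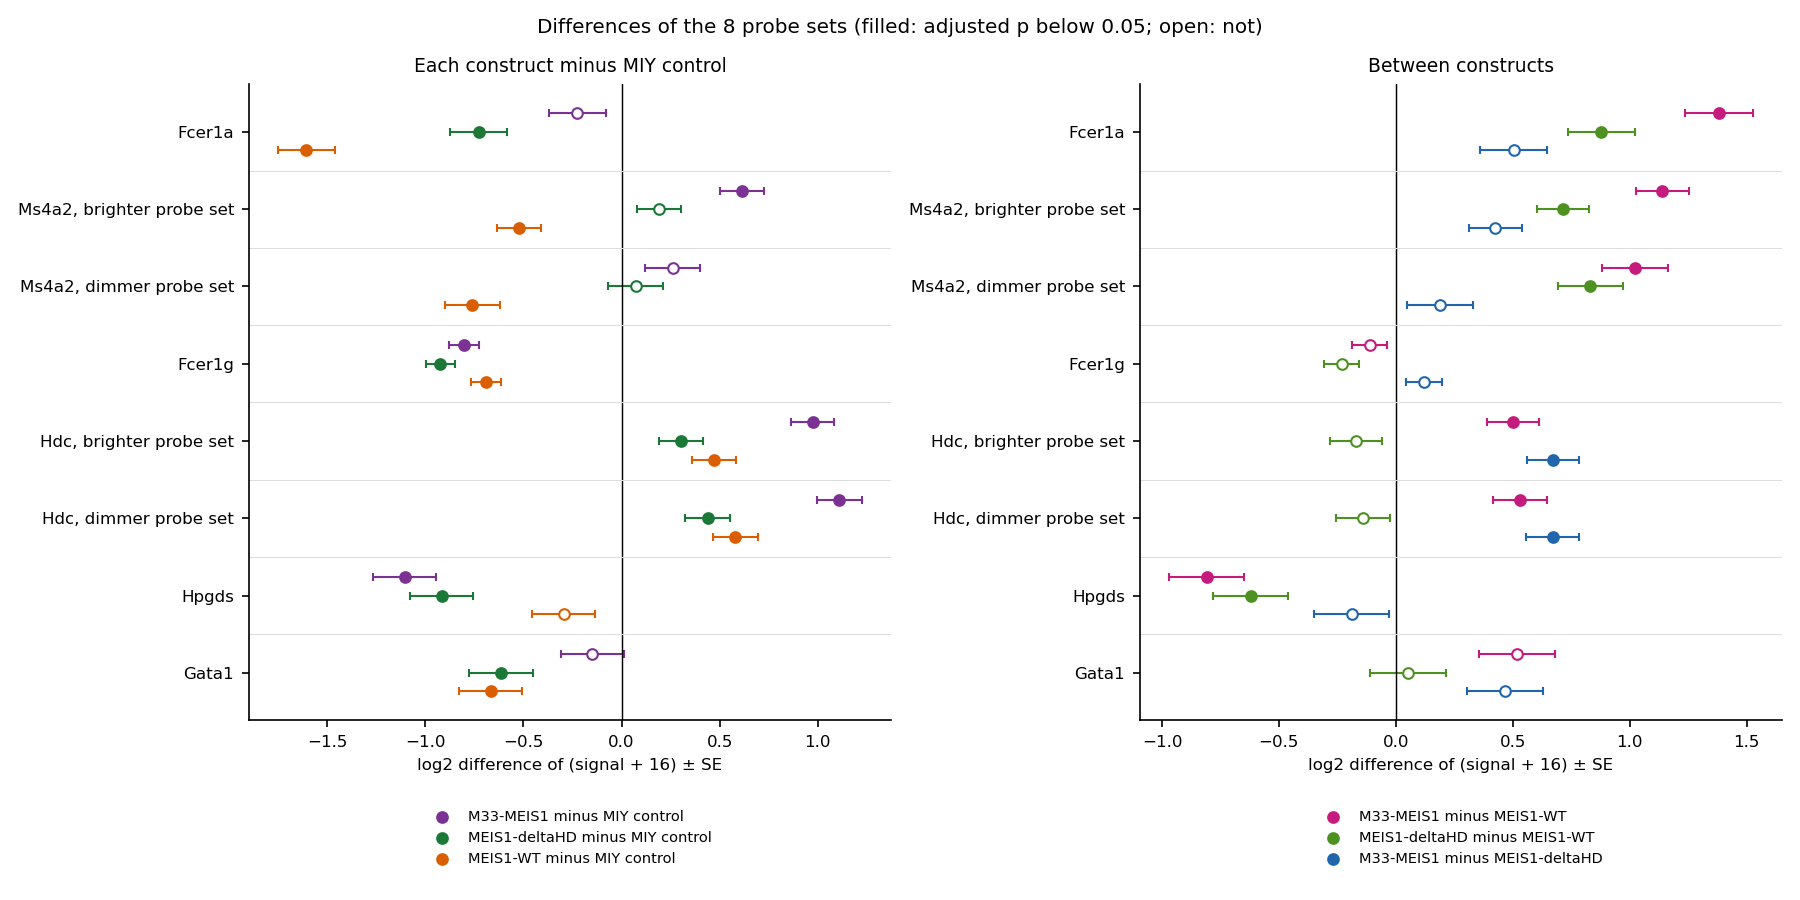
Log2 differences of the 8 probe sets with their standard error, for each construct minus MIY control on the left and between constructs on the right; filled points passed at an adjusted p below 0.05 over all probe sets tested. Fcer1g lies below 0 and Hdc above 0 with all 3 constructs, Fcer1a reaches -1.61 with MEIS1-WT, and between constructs the largest differences are those of Fcer1a and Ms4a2 for M33-MEIS1 minus MEIS1-WT.

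Other genes of the IgE receptor's signalling chain were mostly lower than in MIY control or did not pass, with the authors' scaling. Of 28 measured genes, 0 were higher and 13 lower with M33-MEIS1, 2 and 14 with MEIS1-deltaHD, and 3 and 14 with MEIS1-WT. Among all 14005 genes, each by its main probe set, 15.0% were higher and 19.3% lower with M33-MEIS1, 16.7% and 23.7% with MEIS1-deltaHD, and 16.1% and 20.2% with MEIS1-WT. With a common median the counts of the list turned to 6 higher and 3 lower, 6 and 3, and 7 and 4, so its direction depends on the scaling. Under that scaling 7240 of all 31726 probe sets were higher and 1600 lower with M33-MEIS1. The counts over all probe sets were 9653 and 1801 with MEIS1-deltaHD and 7903 and 2083 with MEIS1-WT. Gab2, an adaptor that links the receptor to phosphoinositide 3-kinase, averaged 281 ± 6.39 (SD, n = 3), 268 ± 11.1 and 285 ± 28.3 with M33-MEIS1, MEIS1-deltaHD and MEIS1-WT, against 677 ± 19.7 in MIY control, and its differences of -1.22, -1.29 and -1.21 passed under all 3 scalings. As for Fcer1g, the 3 construct groups lay close together. Syk, the kinase that the gamma chain recruits, differed by -0.12 with M33-MEIS1 (adjusted p = 0.42) and fell by 0.27 with both MEIS1-deltaHD and MEIS1-WT, calls that a common median removed and turned to differences of 0.22 and 0.08 (adjusted p = 0.26 and 0.742), with 0.22 for M33-MEIS1 (adjusted p = 0.277).

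Cd300lf, an inhibitory receptor of myeloid cells, averaged 199 ± 7.44 with M33-MEIS1, 133 ± 21.4 with MEIS1-deltaHD and 100.4 ± 0.962 with MEIS1-WT, against 426 ± 39.3 in MIY control. The differences of -1.03, -1.57 and -1.92 passed under all 3 scalings, and the order of the groups was that of Fcer1a. Prkcb, a protein kinase C of the beta type, averaged 49.7 ± 2.61 with M33-MEIS1, 45.2 ± 0.186 with MEIS1-deltaHD and 27.3 ± 8.29 with MEIS1-WT, against 76.1 ± 4.42 in MIY control. Its fall of 1.11 with MEIS1-WT passed under all 3 scalings, whereas those of 0.49 and 0.59 with M33-MEIS1 and MEIS1-deltaHD were lost with a common median. Lat, the adaptor that gathers signalling enzymes at the membrane, fell by 0.92 with M33-MEIS1, 1.09 with MEIS1-deltaHD and 0.62 with MEIS1-WT, the last of which was lost with a common median (-0.29, adjusted p = 0.122). Fyn, a kinase that acts with Gab2 in mast cells, was 273 ± 18.0 with M33-MEIS1 and 314 ± 27.7 with MEIS1-deltaHD, against 404 ± 15.3 with MEIS1-WT, and it passed as lower in both comparisons (-0.54 and -0.35, adjusted p = 0.000383 and 0.0261), and the second call was lost with a common median.

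Of the genes around histamine, the vesicle transporter Slc18a2, which loads histamine into granules, went the other way from Hdc. It averaged 168 ± 10.5 with M33-MEIS1, 128 ± 14.9 with MEIS1-deltaHD and 138 ± 5.26 with MEIS1-WT, against 294 ± 67.5 in MIY control. Its differences of -0.73, -1.09 and -0.99 passed under all 3 scalings. Hnmt, which breaks histamine down inside cells, averaged between 0.456 and 3.31 in the 4 groups and did not pass the filter. Of 3 measured genes for the histamine receptors, only Hrh2 passed, with a difference of -0.58 for MEIS1-deltaHD minus MIY control, and it was lost under both other scalings.

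The enzymes upstream and downstream of prostaglandin D2 were read beside Hpgds. Of 14 measured genes for prostaglandin and leukotriene synthesis, 2 were higher and 3 lower with M33-MEIS1, 1 and 5 with MEIS1-deltaHD, and 3 and 3 with MEIS1-WT, all relative to MIY control, and with a common median 2 and 1, 4 and 1, and 5 and 2. Over all genes the shares were 15.0% higher and 19.3% lower, 16.7% and 23.7%, and 16.1% and 20.2% with the authors' scaling. A common median gave 7240 higher and 1600 lower of all 31726 probe sets, 9653 and 1801, and 7903 and 2083. Ptgs2, the inducible cyclooxygenase that supplies the substrate of Hpgds, averaged 63.0 ± 16.3 with M33-MEIS1, 73.9 ± 23.0 with MEIS1-deltaHD and 149 ± 31.9 with MEIS1-WT, against 196 ± 86.4 in MIY control. As for Hpgds, Ptgs2 fell with M33-MEIS1 (-1.37) and MEIS1-deltaHD (-1.19) and not with MEIS1-WT (-0.31, adjusted p = 0.311), and it was lower than with MEIS1-WT in both (-1.06 and -0.89). Hpgd, which inactivates prostaglandins, averaged 40.9 ± 13.2 with M33-MEIS1, 31.0 ± 9.66 with MEIS1-deltaHD and 102 ± 24.3 with MEIS1-WT, against 19.4 ± 3.34 in MIY control. It rose by 0.66 with M33-MEIS1 and by 1.72 with MEIS1-WT, and its difference of 0.39 with MEIS1-deltaHD did not pass (adjusted p = 0.118) but passed under both other scalings. On the leukotriene side Alox5ap, the protein that presents arachidonic acid to 5-lipoxygenase, fell by 0.55 with M33-MEIS1, 0.75 with MEIS1-deltaHD and 1.22 with MEIS1-WT, of which the first and second calls were lost with a common median. Lta4h, which makes leukotriene B4, rose by 1.06 with M33-MEIS1, 1.33 with MEIS1-deltaHD and 0.60 with MEIS1-WT.

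Of 14 measured genes for granule exocytosis, 3 were higher and 3 lower with M33-MEIS1, 2 and 7 with MEIS1-deltaHD, and 2 and 5 with MEIS1-WT, all relative to MIY control, and with a common median 5 and 1, 4 and 2, and 4 and 2. The authors' scaling gave shares over all genes of 15.0% higher and 19.3% lower, 16.7% and 23.7%, and 16.1% and 20.2%. Counts over all 31726 probe sets with a common median were 7240 higher and 1600 lower, 9653 and 1801, and 7903 and 2083. Stx3, a syntaxin of the membrane fusion machinery, averaged 161 ± 18.0 with M33-MEIS1, 133 ± 6.67 with MEIS1-deltaHD and 118 ± 3.55 with MEIS1-WT, against 250.1 ± 25.1 in MIY control. It fell by 0.59, 0.83 and 0.98 in that order, the first of which was lost with a common median (-0.26, adjusted p = 0.153). Snap23, a membrane fusion protein needed for mast cell granule release, fell by 0.84, 0.94 and 0.89 in the same order and passed under all 3 scalings. Rab27b, a small GTPase of secretory granules, averaged 105 ± 9.24 with M33-MEIS1, against 48.0 ± 19.5 with MEIS1-deltaHD, and passed there (0.96, adjusted p = 0.0274), but not after quantile normalization (adjusted p = 0.0544).

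Of 16 factors related to Gata1, 1 was higher and 7 lower with M33-MEIS1, 1 and 7 with MEIS1-deltaHD, and 2 and 9 with MEIS1-WT. With a common median these became 5 and 0, 5 and 2, and 2 and 2. With the authors' scaling 15.0% of all genes were higher and 19.3% lower, 16.7% and 23.7%, and 16.1% and 20.2% in that order. The common median also turned all 31726 probe sets to 7240 higher and 1600 lower, 9653 and 1801, and 7903 and 2083. Gata2, which precedes Gata1 in progenitors and persists in mast cells, averaged 256 ± 41.4 with M33-MEIS1, 194 ± 10.4 with MEIS1-deltaHD and 256 ± 16.6 with MEIS1-WT, against 372 ± 36.4 in MIY control. Its difference of -0.88 with MEIS1-deltaHD passed under all 3 scalings, whereas those of -0.52 and -0.51 with M33-MEIS1 and MEIS1-WT were lost with a common median. Mitf, a central factor of the mast cell programme, averaged 104 ± 30.7 with M33-MEIS1, 66.2 ± 8.57 with MEIS1-deltaHD and 49.2 ± 6.08 with MEIS1-WT, against 145 ± 9.27 in MIY control. It fell by 0.98 with MEIS1-deltaHD and 1.31 with MEIS1-WT under all 3 scalings, and was 0.85 higher with M33-MEIS1 than with MEIS1-WT (adjusted p = 0.000507). Gfi1b, a repressor of erythroid and megakaryocytic cells, rose by 1.00 with MEIS1-WT, where Gata1 fell.

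Other partners of the gamma chain were lower than in MIY control or did not pass, with the authors' scaling. Of 10 measured genes for such receptors and the related adaptors Tyrobp and Hcst, 0 were higher with any construct, and 7, 9 and 5 were lower with M33-MEIS1, MEIS1-deltaHD and MEIS1-WT. With a common median 3, 5 and 5 were lower, and 1 was higher with MEIS1-WT. Of all genes 19.3%, 23.7% and 20.2% were lower with the authors' scaling, and 15.0%, 16.7% and 16.1% higher. Of all 31726 probe sets 1600, 1801 and 2083 were lower with a common median, and 7240, 9653 and 7903 higher. Fcgr1, the high-affinity IgG receptor, averaged 130.1 ± 7.78 with M33-MEIS1, 103 ± 1.96 with MEIS1-deltaHD and 86.5 ± 15.3 with MEIS1-WT, against 471 ± 85.6 in MIY control. Clec4n, the lectin Dectin-2 that signals through the gamma chain, averaged 113 ± 35.4, 44.1 ± 11.0 and 11.3 ± 0.364 in the same order, against 608 ± 122 in MIY control, a difference of -4.50 with MEIS1-WT. Clec4n also differed between constructs and was 2.20 higher with M33-MEIS1 than with MEIS1-WT (adjusted p = 3.76e-09), a comparison in which Fcer1g did not pass.

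**Figure D3:**
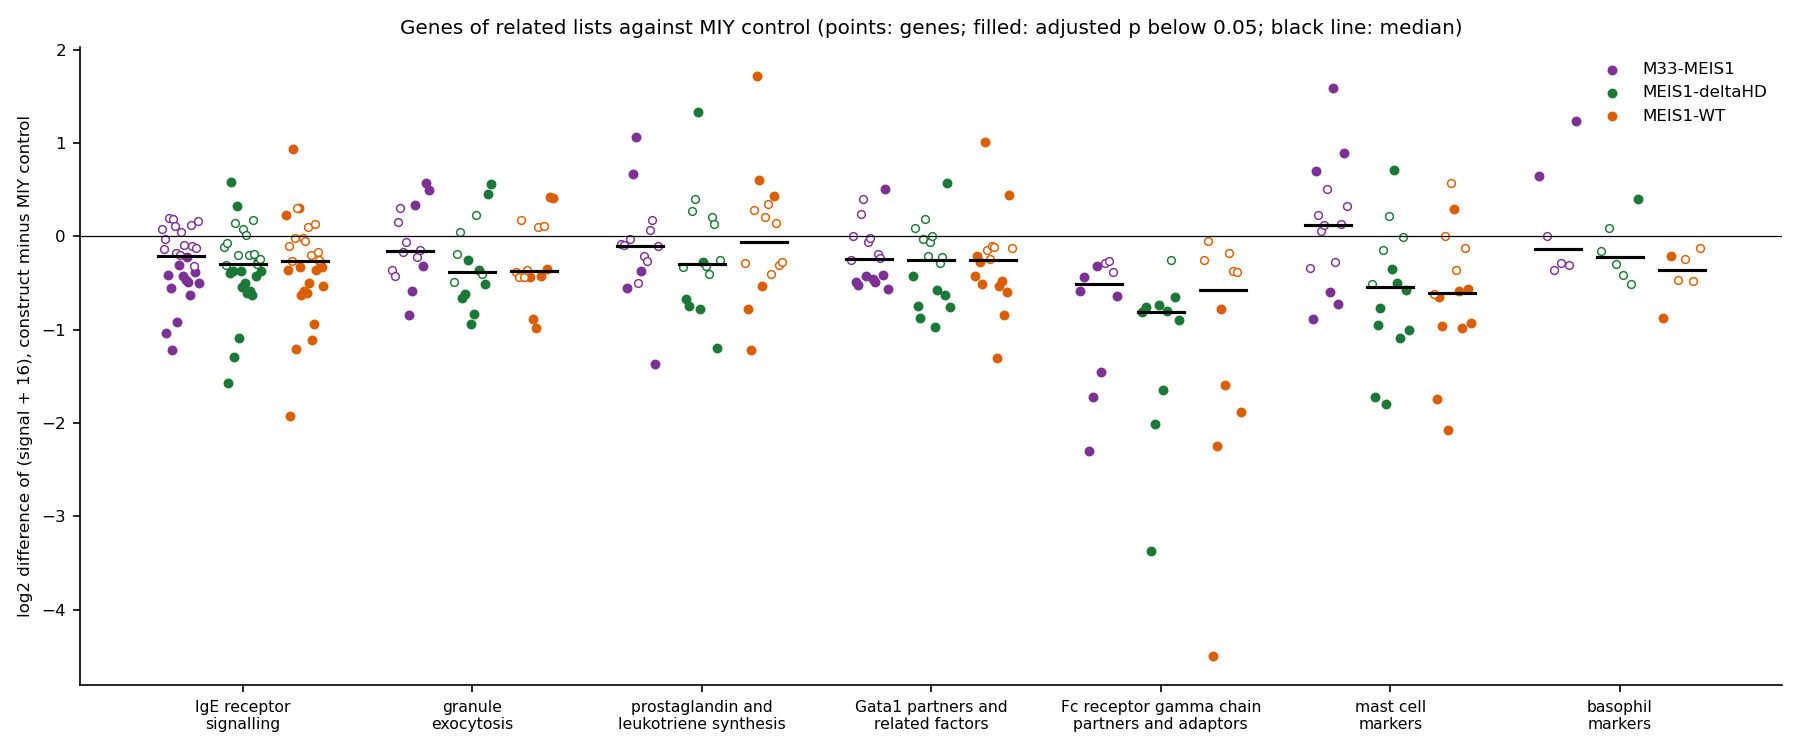
Log2 differences from MIY control of the measured genes in 7 related lists, with M33-MEIS1, MEIS1-deltaHD and MEIS1-WT in that order within each list; points are genes by their main probe set, filled where the adjusted p was below 0.05, and black lines are list medians. The partners of the gamma chain, with the related adaptors, have medians of -0.51, -0.81 and -0.58 and the mast cell markers of 0.12, -0.54 and -0.61, beside -0.10, -0.14 and -0.10 over all genes.

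Summed markers of some cell types had the same order of groups as a member, and others did not. The monocyte and macrophage list, with 14 of 15 genes measured, summed to 4867 to 5518 with M33-MEIS1, 3069 to 3402 with MEIS1-deltaHD and 711 to 907 with MEIS1-WT, against 15217 to 18004 in MIY control, and 13 of the 14 were lower with each construct (11, 12 and 13 with a common median). Fcer1a had the same order of groups, and Fcer1g shared the high level in MIY control but not the order of the constructs. The 13 neutrophil markers summed to 25902 to 30236 with M33-MEIS1, 25215 to 27164 with MEIS1-deltaHD and 15791 to 16581 with MEIS1-WT, against 19990.2 to 24135 in MIY control, also the order of the Ms4a2 means. Of them, 12 were higher and 0 lower for M33-MEIS1 minus MEIS1-WT and 11 and 0 for MEIS1-deltaHD minus MEIS1-WT, the comparisons in which Fcer1a and both Ms4a2 probe sets were higher. Of all probe sets 3.36% were higher and 2.19% lower in the first comparison, and 2.42% and 2.11% in the second. Against MIY control, 8 of the neutrophil markers were higher and 3 lower with M33-MEIS1, 7 and 3 with MEIS1-deltaHD and 1 and 7 with MEIS1-WT. With a common median these became 9 and 3, 9 and 3, and 2 and 5. Mpo, Ctsg and Prtn3 averaged 7592, 5946 and 4919 of the mean sum of 28258 with M33-MEIS1. Mmp8 fell by 1.95, 3.01 and 4.28 with the constructs in that order, and Lcn2 and Csf3r also fell with all 3. The basophil list summed to 1402 to 1520, 1001 to 1111, 774 to 811 and 906 to 977 in the same order of groups, nearly all of it from Mcpt8 and Cebpa. Without that pair, left out after their values were seen, it summed to 86.3 to 108, 59.0 to 66.1 and 42.5 to 55.2 with the constructs and 77.2 to 131 in MIY control. Of 6 basophil genes measured, 2 were higher and 0 lower with M33-MEIS1, 1 and 0 with MEIS1-deltaHD and 0 and 2 with MEIS1-WT, with medians of -0.14, -0.22 and -0.36 against control. With a common median the counts were 3 and 0, 2 and 0, and 0 and 1, and the medians 0.11, 0.09 and -0.16. Il13, Ptgdr2 and Ccr3 were too dim to pass the filter. Shares over all genes relative to MIY control, with the authors' scaling, were 15.0% higher and 19.3% lower, 16.7% and 23.7%, and 16.1% and 20.2%. A common median gave 7240 higher and 1600 lower of all 31726 probe sets, 9653 and 1801, and 7903 and 2083. The basophil protease Mcpt8 rose by 1.23 with M33-MEIS1 and by 0.40 with MEIS1-deltaHD and did not pass with MEIS1-WT (-0.13, adjusted p = 0.252), all relative to MIY control. Megakaryocyte markers summed to 1308 to 1800 with M33-MEIS1, 767 to 983 with MEIS1-deltaHD, 1713 to 2480 with MEIS1-WT and 1179 to 1443 in control. Erythroid markers gave 1427 to 1751, 1253 to 1524, 1827 to 2156 and 1642 to 2042 in that order. Both mean sums were highest with MEIS1-WT, where Gata1 was below MIY control, but 1 gene made up most of each. Pf4 averaged 1395 of the mean megakaryocyte sum of 2198 there, and Car2 1932 of the mean erythroid sum of 2017. Of 11 megakaryocyte genes measured, 1 was higher and 2 lower with MEIS1-WT than in MIY control, and of 6 erythroid genes 1 and 1. With a common median these were 5 and 2, and 1 and 1. The medians with the authors' scaling were 0.11 and -0.27. Hemgn of the erythroid list fell by 1.15 with MEIS1-WT. The fibroblast list was read for the virus producer cells. It summed to 176 to 182 with M33-MEIS1, 200 to 228 with MEIS1-deltaHD, 211 to 295 with MEIS1-WT and 372 to 462 in MIY control. Pdgfrb made up most of it, at 139, 162, 189 and 315 on average in that order. Of 5 measured genes, 0 were higher and 2 lower with each construct (2, 1 and 0 lower with a common median). The part of these cell types in the levels of the members was not tested.

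Several mast cell markers were higher with M33-MEIS1 than with the other constructs. Of the 14 measured, 7 were higher and 1 lower for M33-MEIS1 minus MEIS1-WT, 7 and 0 for M33-MEIS1 minus MEIS1-deltaHD, and 1 and 1 for MEIS1-deltaHD minus MEIS1-WT, with medians of 0.59, 0.60 and 0.0016. All probe sets had shares of 3.36% and 2.19%, 0.438% and 0.0536%, and 2.42% and 2.11% in that order. Relative to MIY control, 3 of the 14 were higher and 3 lower with M33-MEIS1, 1 and 9 with MEIS1-deltaHD, and 1 and 8 with MEIS1-WT, and with a common median 8 and 2, 2 and 4, and 2 and 5. Among all genes the authors' scaling gave 15.0% higher and 19.3% lower, 16.7% and 23.7%, and 16.1% and 20.2%. Among all 31726 probe sets the common median gave 7240 higher and 1600 lower, 9653 and 1801, and 7903 and 2083. Cd200r4, a receptor of the CD200 receptor family, averaged 157 ± 5.89 with M33-MEIS1, 81.4 ± 14.6 with MEIS1-deltaHD and 80.9 ± 18.6 with MEIS1-WT, against 305 ± 38.1 in MIY control. Its differences of -0.89, -1.73 and -1.74 passed under all 3 scalings. The protease Mcpt2 went otherwise, with means of 136, 67.2 and 25.1 in the same order, against 34.9 in MIY control, and rose by 1.58 with M33-MEIS1 and 0.71 with MEIS1-deltaHD under all 3 scalings. Cpa3 fell by 0.77 with MEIS1-deltaHD, a call lost with a common median (-0.27, adjusted p = 0.0538), and by 0.96 with MEIS1-WT. Its difference of 0.22 with M33-MEIS1 did not pass (adjusted p = 0.142), but passed as 0.58 with a common median. It was 1.18 higher with M33-MEIS1 than with MEIS1-WT (adjusted p = 8.03e-08) and 0.99 higher than with MEIS1-deltaHD (adjusted p = 1.94e-05). Gzmb fell by 1.80 with MEIS1-deltaHD and 2.08 with MEIS1-WT, the groups in which Gata1 fell, and its difference of 0.12 with M33-MEIS1 did not pass (adjusted p = 0.652), but passed as 0.48 with a common median (adjusted p = 0.0241). Kit, the receptor for stem cell factor, ran otherwise, with 257 ± 11.7 with M33-MEIS1, 308 ± 8.20 with MEIS1-deltaHD and 491 ± 71.8 with MEIS1-WT, against 397 ± 18.5 in MIY control.

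**Figure D4:**
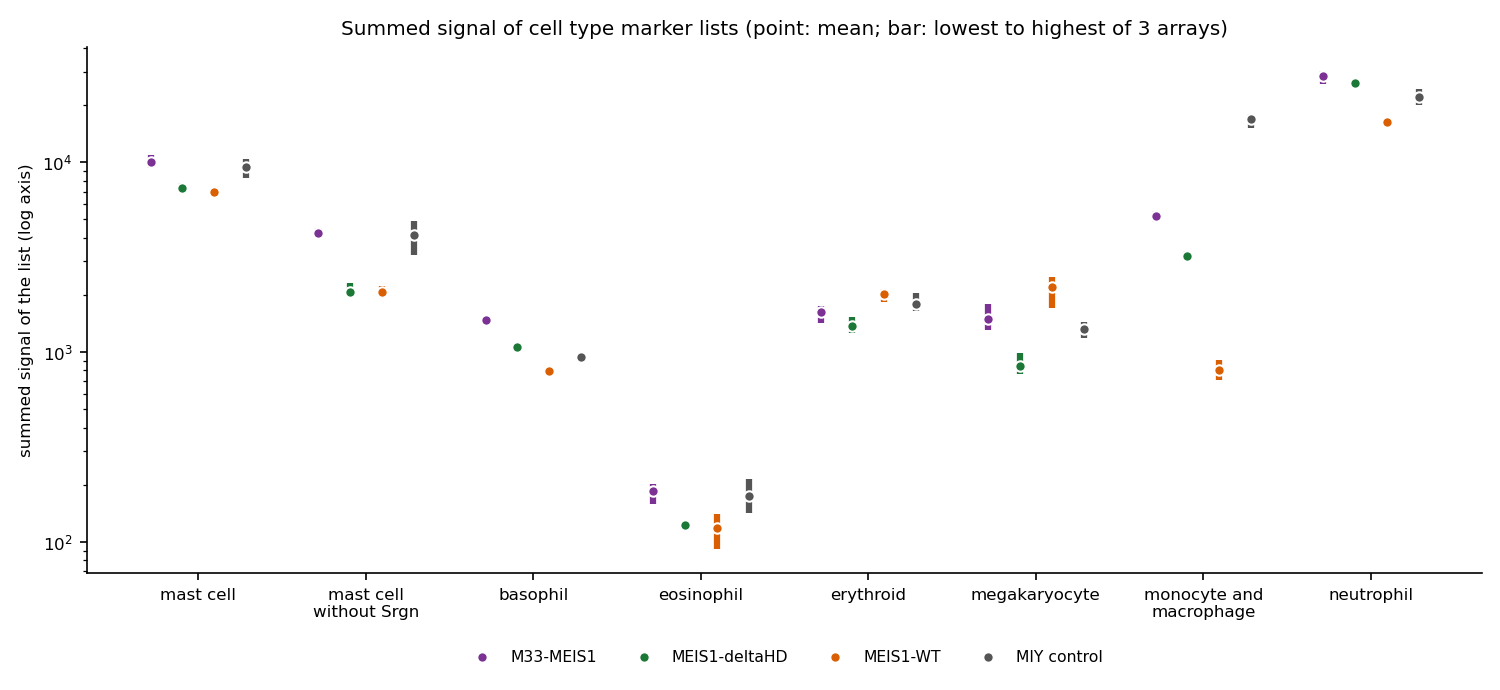
Summed signal of 7 marker lists, and of the mast cell list without Srgn, in M33-MEIS1, MEIS1-deltaHD, MEIS1-WT and MIY control, on a log axis; points are means and bars run from the lowest to the highest of 3 arrays. The monocyte and macrophage sum is lowest with MEIS1-WT (711 to 907) and highest in MIY control (15217 to 18004), while the mast cell sums run between 6615 and 10856, and without Srgn between 1940.3 and 4909.

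The genes whose pattern was most like that of each member were taken by Pearson's r of log2 signal over the 12 arrays, among 4625 other genes (4626 for Gata1) that spanned at least 1 log2 unit. The arrays fall into 4 groups, so r mostly reflects the group means and is given as a description. For Fcer1a they were Csf2rb2 (r = 0.976), the IL-3-specific beta chain of mice, then Cd55, Cfp and Ccr1 (r = 0.969, 0.964 and 0.962). Csf2rb2 averaged 544 with M33-MEIS1, 370 with MEIS1-deltaHD and 241 with MEIS1-WT, against 695 in MIY control. For Ms4a2 they were Cd200r3 (r = 0.932), a receptor of basophils and mast cells, at 55.0, 24.4 and 8.43 with the constructs in that order and 29.0 in MIY control, then Klrb1f, Lipg and S100a9 (r = 0.928, 0.925 and 0.924).

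For Fcer1g they were Saraf, Itgal, Csf1 and Sqstm1 (r = 0.986, 0.986, 0.985 and 0.981), all highest in MIY control, with Itgal, an integrin chain of leukocytes, at 341 with M33-MEIS1, 307 with MEIS1-deltaHD and 354 with MEIS1-WT, against 788 in MIY control. Hdc had no match as close, with Pank3, Cxcr4, Ccng1 and Atg9b at r = 0.847, 0.836, 0.829 and 0.826. For Hpgds they were Tspan13, Mir155hg, Zfand5 and Fgfrl1 (r = 0.949, 0.946, 0.936 and 0.935), and Mir155hg, the host gene of the microRNA miR-155, averaged 18.2 with M33-MEIS1, 18.1 with MEIS1-deltaHD and 41.9 with MEIS1-WT, against 47.2 in MIY control. For Gata1 they were Arr3, Mitf, Il2ra and Gzmb (r = 0.929, 0.925, 0.918 and 0.908), of which Mitf and Gzmb also stand in the lists above.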

How the data were processed

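Total RNA of sorted cells was hybridised to Affymetrix mouse arrays with 45101 probe sets. The values the authors deposited are array intensity, as signals made with GCOS 1.2 per the submitters' processing notes. The mean without the lowest and highest 2% was 100 on all 12 arrays, so the authors scaled each array to a common target, which lets the median signal vary between 13.1 and 21.6. The sources used here do not give the background and summary settings, and no detection call was used.

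The signals were turned into log2(signal + 16), which understates the change of dim genes. The 64 array controls were left out, and a probe set was kept when its signal exceeded the array's 40th percentile on 3 or more arrays, which left 31726. Of the probe sets, 34945 carried 1 symbol, 932 several and 9160 none. Symbols were checked through 34741 Entrez IDs, and 0 changed. All kept probe sets were fitted in 1 model of the 4 groups with limma 3.58.1 in R 4.3.3 (eBayes with an intensity trend, 8 residual degrees of freedom), and two-sided p-values of the 6 comparisons were adjusted by Benjamini and Hochberg over all of them. The fit was tested on simulated data. A rank test of 3 against 3 arrays cannot give a two-sided p below 0.1. P-values set a difference between groups against the spread of arrays within groups, estimated over all 4 groups together. The eBayes step draws that spread towards the one of other probe sets of like intensity, so it is not the probe set's own spread alone.

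Lists were read by the main probe set of each gene, the brightest one kept. The text names every member, some of the up to 4 genes per list with the largest difference from control among those that passed (which of them, with values in view), direct partners of the members and the 4 genes most like each member. Fyn, Cma1, Tpsab1, Tpsb2, Mpo, Ctsg, Prtn3, Csf3r and the markers that missed the filter were added after their values were seen. The members and lists were chosen with earlier results of these data known, among them the fall of Fcer1a with MEIS1-WT. The alternatives were 2 other offsets, no filter, 2 other scalings, the brightest probe set alone, no trend, array weights, a replicate block and leaving out each array. Figures were drawn with matplotlib 3.10.9.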

Additional observations from a re-analysis of the deposited data

How the results depend on the processing

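Of 996 differences of single member probe sets under the alternatives, 954 kept their direction and their side of the threshold, 25 no longer passed, 9 passed only there and 8 changed sign. Those that changed sign had not passed before. They were Gata1 for M33-MEIS1 minus control after quantile normalization (0.0148) and with a common median (0.13), Fcer1a for M33-MEIS1 minus control (0.10), Hpgds for MEIS1-WT minus control (0.0273) and Fcer1g for M33-MEIS1 minus MEIS1-deltaHD (-0.0248) with a common median, the dimmer Ms4a2 probe set for MEIS1-deltaHD minus control without control replicate 3 (-0.0099, and 0.20 at the highest without another array), and Gata1 for MEIS1-deltaHD minus MEIS1-WT without MEIS1-WT replicate 1 (-0.013) or 2 (-0.0026), and 0.17 at the highest. The 2 calls for M33-MEIS1 minus MEIS1-deltaHD, both Hdc, became 0 with a common median, 0 without the intensity trend, and 1 with the brightest probe set alone, where Hdc has only 1; for the other 2 settings the cause was not tested. Without one array in turn the calls ranged from 5 to 5, 5 to 7 and 7 to 8 of 8 for M33-MEIS1, MEIS1-deltaHD and MEIS1-WT against control, from 5 to 7 and 3 to 4 for M33-MEIS1 and MEIS1-deltaHD against MEIS1-WT, and from 1 to 2 for M33-MEIS1 minus MEIS1-deltaHD, where the lowest came without MEIS1-deltaHD replicate 2. Relative to the authors' scaling, the median difference of all probe sets from control moved up by 0.13, 0.16 and 0.13 after quantile normalization and by 0.22, 0.31 and 0.23 with a common median, for M33-MEIS1, MEIS1-deltaHD and MEIS1-WT. Calls over all probe sets were 3740 higher and 5420 lower, 4365 and 6595, and 4161 and 5662 against control for M33-MEIS1, MEIS1-deltaHD and MEIS1-WT, and became 7240 and 1600, 9653 and 1801, and 7903 and 2083 with a common median; for MEIS1-deltaHD they were 5266 and 4394 after quantile normalization. With fewer features, by the brightest probe set, 2473, 2764 and 2665 were higher. For M33-MEIS1 minus MEIS1-WT there were 1065 and 694, and 726 and 441 without the trend. For MEIS1-deltaHD minus MEIS1-WT there were 767 and 669, against 421 and 374 without the trend and 986 and 305 with a common median. For M33-MEIS1 minus MEIS1-deltaHD there were 139 and 17, against 77 and 6 without the filter, 58 and 16 with a common median, 32 and 5 without the trend, 113 and 10 with an offset of 1, 116 and 10 after quantile normalization and 134 and 8 by the brightest probe set. With the replicate number as a block the calls of the members stayed at 5, 6, 7, 6, 4 and 2 in the 6 comparisons; deviations of arrays with the same number correlated between -0.047 and 0.028, so the numbers are not taken as a pairing. The number of arrays limits the precision, and a signal near the 40th percentile of an array carries little information on its level.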
